A study of Mus musculus with 6 samples.

Results

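Ribosome biogenesis genes were compared between mouse megakaryocytes with Gata-1 knocked down and wild-type megakaryocytes. The members were 36 genes for proteins that make ribosomes in the nucleolus, and a member was read through each probe set whose platform annotation named it and no other gene. This gave 75 of the 45101 probe sets on the arrays, and all 36 genes had at least 1, among 18193 genes named in this way. Megakaryocytes are the cells that release platelets, and GATA1 is a transcription factor needed for their maturation. Each group held 3 arrays, lettered A, B and C, each of total RNA from megakaryocytes that had been cultured from progenitors of fetal liver at embryonic day 13.5 and purified over a bovine serum albumin gradient. Both groups shared that culture and purification. The knockdown group carried reduced Gata-1 per its label, and the wild-type group is labelled Gata-1 wild type. The labels give neither the allele or agent behind the knock down nor the strain. They also do not tell whether the arrays of a group came from separate animals or cultures, so each p-value reflects the spread between arrays only, and that spread may be technical.

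Ribosomes are assembled in the nucleolus, where RNA polymerase I (Pol I) copies the ribosomal DNA into a long precursor rRNA. Small nucleolar RNAs in protein complexes (snoRNPs) guide the modification of that precursor, with box C/D snoRNPs directing ribose methylation and box H/ACA snoRNPs directing pseudouridine formation. Assembly factors then fold, cut and export the precursors of the small and the large subunit. The program is known to be active in growing and dividing cells and to be raised by the transcription factor MYC, and megakaryocytes grow to a large size while they mature.

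The 6 arrays passed a check of their labels, since the 1 probe set of Gata1 read 143.3 to 194.7 in knockdown and 8246.5 to 8723.7 in wild type. The median signal of an array was 111.3, 137.8 and 118.4 in knockdown A, B and C and 101.6 to 104.4 in wild type. Log2 values of 2 arrays correlated at 0.928 to 0.943 between groups, across probe sets that are not independent of each other, while pairs of wild-type arrays reached at least 0.980 and pairs of knockdown arrays at least 0.963. Knockdown B had the highest median and the highest signal of bacterial control probe sets, 132, against 60.7 to 82.2 elsewhere. The number of arrays limits the precision. Of 11 megakaryocyte markers named on the array, 0 lay within the bacterial control signal on all arrays of either group.

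The member genes were higher in the knockdown almost throughout. Of the 36 genes, each represented by its brightest probe set, 31 rose, 1 fell and 4 did not pass the test (limma, Benjamini-Hochberg adjustment over all 31526 probe sets tested, adjusted p under 0.05). Among all 14230 genes tested, 18.3% were called higher and 17.1% lower. The median log2 fold change, knockdown minus wild type, was 0.61 over the members and 0.033 over all tested genes. The rises were moderate, from 1.22-fold for Noc2l to 2.47-fold for Nop58. Of the 31, 20 reached 1.5-fold, a size at which 7.48% of all tested genes were called higher, and 2 reached 2-fold, where 2.07% were. All 36 genes passed the filter on dim probe sets, and all 36 lay above the highest bacterial control on each of the 6 arrays.

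On the normalized scale, the 3 knockdown arrays lay above the 3 wild-type arrays without overlap for 33 of the 36 members, against 24.9% of all tested genes. For 1 member, Rrp12, they lay below without overlap, as for 22.8% of all tested genes. Polr1a and Utp20 belong to the 33 although they did not pass the test. Only Bysl and Dimt1 had overlapping arrays. The median member lay 0.54, 0.60 and 0.64 log2 units above its wild-type mean on knockdown A, B and C. Knockdown C held the highest knockdown value for 17 members and knockdown A the lowest for 20.

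**Figure D1:**
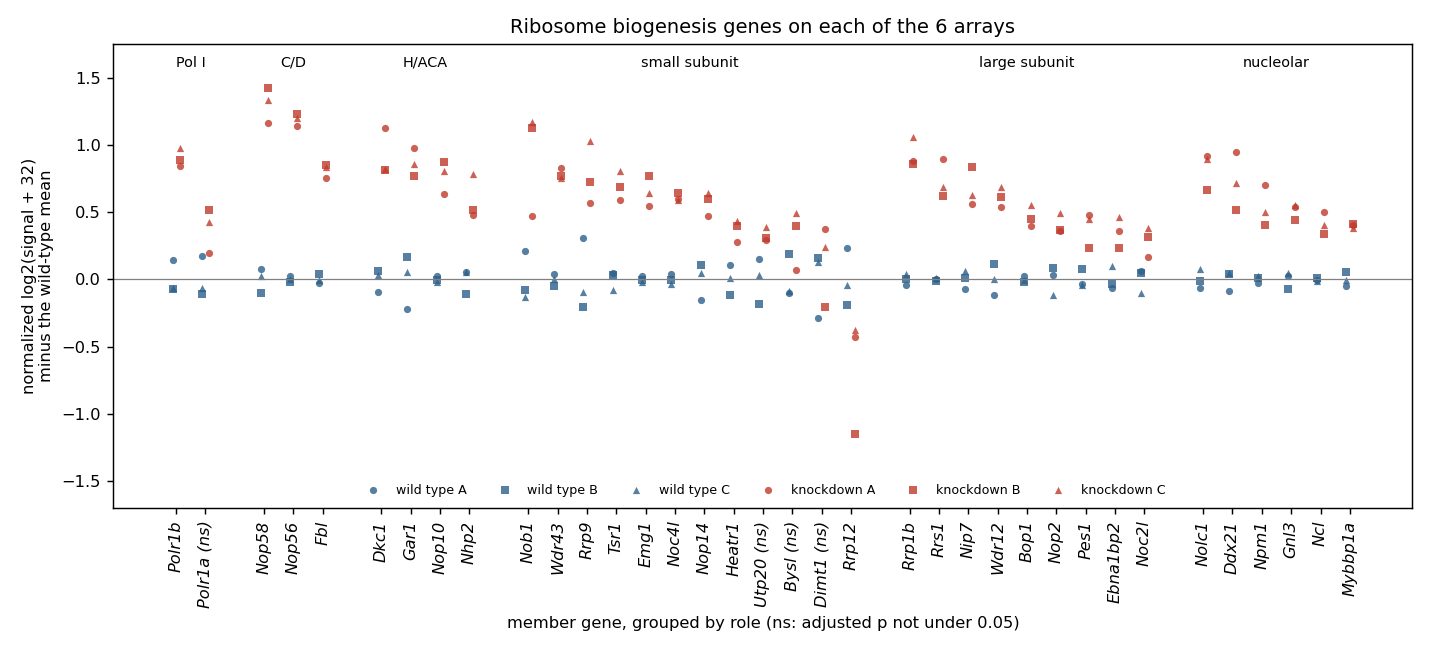
Normalized log2(signal + 32) of each member's brightest probe set minus its wild-type mean (vertical axis, log2 units), for the 36 members grouped by role (horizontal axis); each point is 1 of 3 wild-type (blue) or 3 knockdown (red) arrays, with no error bar since all arrays are drawn. The knockdown points lie above the wild-type points without overlap for 33 members, overlap them for Bysl and Dimt1, and lie below them for Rrp12.

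The members also moved together under other scalings of the arrays, but the number called depended on the scaling. Quantile normalization gave 31 rises and 1 fall. The deposited values, taken without further normalization, gave 34 and 0, where 21.1% of all tested genes were called higher and 16.2% lower. Centring each array on its median gave 21 and 1, where 8.35% were called higher and 20.8% lower. In each of these 3 scalings 35 of the 36 members had a positive log2 fold change. The median of all tested genes was 0.033 with quantile normalization, 0.12 as deposited and -0.078 with centring on the median. Relative to that median, the members' median lay 0.58, 0.49 and 0.49 log2 units higher.

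Markers of other cells moved with the knockdown as well. Of 14 tested markers of dividing cells, such as Mki67 and Cdk1, 11 rose and 0 fell, and their summed signal was 45300 to 46950 in knockdown and 35990 to 37150 in wild type. Of 11 megakaryocyte markers 9 fell, with sums of 104900 to 129500 in knockdown and 155500 to 166300 in wild type. The 2 not called were Itga2b, at -0.03 on the log2 scale, and Pf4, at -0.06, while Tubb1 fell most, at -2.61. Of 10 tested macrophage markers 9 fell, with sums of 6080 to 6341 and 17080 to 17530 over 11 markers, and Marco lay within the bacterial control signal in both groups. Of 10 neutrophil markers 8 fell, with sums of 3217 to 3332 and 11310 to 11740. Of 9 mast cell markers 7 fell, with sums of 1285 to 1469 and 4398 to 4988, and in knockdown 6 of them (Mcpt1, Mcpt4, Tpsb2, Ms4a2, Fcer1a and Hdc) lay within the bacterial control signal. Of 6 tested erythroid markers 3 fell and 1 rose, with sums of 3282 to 3561 and 15100 to 15420 over 7 markers, of which Hbb-bh1 lay within that signal in knockdown. Most of the wild-type sum came from Hbb-y and Epor, with means of 1125 and 757.4 in knockdown and 9748 and 3990 in wild type. Alas2 also fell, Slc4a1 rose, and Hba-a1 and Klf1 were not called. The probe set of Hba-a1 was dim, with means of 87.7 in knockdown and 98.37 in wild type. On 1 knockdown array it lay within the bacterial control signal. Of 3 tested hepatocyte markers 1 fell, with sums of 447.3 to 679.2 and 1089 to 1246 over 6 markers; Apoa1 and Fgb lay within background on all arrays of both groups, Ttr on the 3 knockdown arrays, and Ahsg on the 3 knockdown arrays and 2 wild-type arrays. The part of these markers in the members' change was not tested. In such bulk RNA, a change in the share of a cell type and a change in RNA per cell cannot be told apart.

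The 3 members among the core proteins of box C/D snoRNPs had the largest median change of the 6 role groups, 1.19 on the log2 scale. All 3 rose. Nop58 and Nop56 are the paired scaffold proteins of these particles, and fibrillarin, encoded by Fbl, is the methyltransferase. Nop58 read 1496.7, 1729.5 and 1667.6 in knockdown A, B and C and 671.9, 586.5 and 636.8 in wild type A, B and C. Every knockdown array lay above every wild-type array, and the log2 fold change was 1.30 ± 0.09 (SE; limma adjusted p 3.58e-06). Nop56 read 3124.0, 3219.7 and 3250.4 in knockdown and 1439.6, 1392.9 and 1417.3 in wild type. Its log2 fold change of 1.19 ± 0.06 had the lowest adjusted p of all members, 3.25e-07 (limma). A second probe set of Nop56 gave 1.15 ± 0.07. Fbl read 3842.5, 4003.0 and 4057.3 in knockdown and 2298.7, 2389.5 and 2321.3 in wild type. The 2 groups of Fbl were again well apart, and Fbl rose by 0.81 ± 0.06 on the log2 scale (limma adjusted p 2.74e-06), while its second probe set gave 0.70 ± 0.06.

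The stretches just upstream of the annotated starts of Nop58 and Nop56 are shown because these were the 2 members that changed most. Each is the 250 bases before the start, on the plus strand, from RefSeq's annotation of GRCm38.p6, at chr1:59684756-59685005 for Nop58 and chr2:130274162-130274411 for Nop56. Over the 300 bases that also take in the first 50 after the start, the GC content was 45.3% for Nop58 and 66.0% for Nop56. Neither holds any of the motifs searched for below.
Nop58: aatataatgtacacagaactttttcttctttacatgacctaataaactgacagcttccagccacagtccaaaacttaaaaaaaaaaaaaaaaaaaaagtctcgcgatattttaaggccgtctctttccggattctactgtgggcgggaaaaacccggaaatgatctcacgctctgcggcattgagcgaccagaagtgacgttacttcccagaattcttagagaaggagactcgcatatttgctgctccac
Nop56: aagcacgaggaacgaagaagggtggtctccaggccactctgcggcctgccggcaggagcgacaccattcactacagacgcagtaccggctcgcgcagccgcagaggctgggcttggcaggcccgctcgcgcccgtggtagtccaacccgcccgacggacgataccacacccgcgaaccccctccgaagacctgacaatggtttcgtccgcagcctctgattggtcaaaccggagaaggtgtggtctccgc

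All 4 core proteins of box H/ACA snoRNPs rose, with a median log2 fold change of 0.82. Dkc1 encodes dyskerin, the pseudouridine synthase of these particles, which also stabilizes telomerase RNA. It read 4291.0, 3407.3 and 3510.8 in knockdown and 1918.1, 2125.6 and 2088.4 in wild type, and rose by 0.92 ± 0.09 on the log2 scale (SE; limma adjusted p 2.81e-05). Of its 3 tested probe sets 2 were called higher, and the third, at 0.42 ± 0.15, had a limma adjusted p of 0.0559. Gar1 read 2128.4, 1781.7 and 1934.0 in knockdown and 899.9, 1195.0 and 1099.8 in wild type, a difference of 0.87 ± 0.11 on the log2 scale (limma adjusted p 1.34e-04). Nop10, the smallest protein of the complex, read 8425.0, 10549.7 and 9939.7 in knockdown and 5941.0, 5690.9 and 5746.6 in wild type, a difference of 0.77 ± 0.06 on the log2 scale (limma adjusted p 8.33e-06). The arrays of the 2 groups did not overlap for any of the 4. The RNA-binding protein gene Nhp2 had the smallest change, 0.59 ± 0.08, and centring arrays on their medians ended its call, at 0.31 and a limma adjusted p of 0.0768.

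Of the 2 subunits of Pol I itself, Polr1b rose and Polr1a did not pass the test. Polr1b, the second largest subunit, read 671.8, 665.1 and 722.2 in knockdown and 370.1, 314.5 and 308.8 in wild type, a difference of 0.90 ± 0.11 on the log2 scale (SE; limma adjusted p 1.29e-04). Polr1a, the largest and catalytic subunit, read 354.9, 448.6 and 419.6 in knockdown and 321.7, 260.0 and 263.9 in wild type. The groups did not overlap, but the change of 0.38 ± 0.14 on the log2 scale missed the threshold, with an adjusted p of 0.0658 by limma and a 95% interval, not adjusted for the number of probe sets, of 0.07 to 0.69. A dimmer probe set of Polr1a was called, at 0.58 ± 0.14 (limma adjusted p 0.0114), and the other 3 lay within background on all 6 arrays and were not tested. Polr1a also passed with its brightest probe set as deposited, at 0.49 (limma adjusted p 0.0199), and without knockdown A, at 0.47 (limma adjusted p 0.0246).

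Factors of the small subunit were the most mixed group: of 12, 8 rose, 1 fell and 3 did not pass, with a median log2 fold change of 0.59. Nob1, the nuclease that makes the last cut in small subunit rRNA, read 1223.2, 1848.8 and 1945.1 in knockdown and 982.4, 797.5 and 760.5 in wild type. Knockdown A lay closest to wild type, and the log2 fold change was 0.92 ± 0.17 (SE; limma adjusted p 0.00236). Wdr43, an early factor on the nascent precursor, read 2367.9, 2234.3 and 2248.7 in knockdown and 1375.3, 1285.1 and 1334.2 in wild type, a log2 fold change of 0.78 ± 0.06. Rrp9, a protein of the snoRNP needed for the first cuts of the precursor, read 432.8, 475.9 and 592.8 in knockdown and 326.2, 219.2 and 234.6 in wild type, a log2 fold change of 0.77 ± 0.17. The limma adjusted p was 9.29e-06 for Wdr43 and 0.00611 for Rrp9. The other 5 that rose were Tsr1, a GTPase-like factor of late precursors, by 0.69 ± 0.08, the rRNA methyltransferase gene Emg1 by 0.65 ± 0.06, Noc4l by 0.61 ± 0.06, Nop14 by 0.57 ± 0.10 and Heatr1 by 0.37 ± 0.08. All 4 tested probe sets of Noc4l were called higher, as were 2 of the 3 of Heatr1. A dimmer probe set of Tsr1 did not pass, at 0.29 ± 0.15 (limma adjusted p 0.188). Centring arrays on their medians ended the call of Heatr1.

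Rrp12, which takes part in export of the precursor subunits, was the 1 member that fell. Its only probe set read 294.4, 186.9 and 305.3 in knockdown A, B and C and 449.6, 329.8 and 360.7 in wild type A, B and C. The groups did not overlap, knockdown B was lowest, and the log2 fold change was -0.65 ± 0.21 (SE; limma adjusted p 0.0409). This call was lost without knockdown B (-0.41, limma adjusted p 0.0681) and without wild type A, B or C (adjusted p 0.157, 0.0586 and 0.0946). It was also lost as deposited, with no filter and with no intensity trend, and over all 16 alternatives its adjusted p ranged from 0.0156 to 0.157.

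The 3 small subunit factors that did not pass had positive log2 fold changes, smaller than those of the small subunit members that rose. Utp20 read 425.7, 425.6 and 453.6 in knockdown and 353.9, 274.6 and 316.6 in wild type, without overlap, at 0.33 ± 0.13 (SE; 95% interval 0.05 to 0.61; limma adjusted p 0.0762). It passed on the deposited values, at 0.43 (limma adjusted p 0.0203), and, although it has 1 probe set, when genes rather than probe sets were tested (limma adjusted p 0.0449). Bysl read 961.0, 1168.6 and 1267.6 in knockdown and 813.8, 1015.4 and 821.7 in wild type, so its groups overlapped. It had 0.32 ± 0.12 (interval 0.04 to 0.60; limma adjusted p 0.0815), and without knockdown A, its lowest knockdown array, it passed at 0.45 (limma adjusted p 0.00721), as it did on the deposited values, at 0.34 (limma adjusted p 0.0484). Dimt1, the methyltransferase of a conserved pair of adenosines in small subunit rRNA, read 216.7, 157.2 and 198.9 in knockdown and 110.4, 167.8 and 159.8 in wild type. Its groups overlapped, and the value of 0.14 ± 0.21 (interval -0.34 to 0.61; limma adjusted p 0.693) has an interval that reaches the members' median change.

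**Figure D2:**
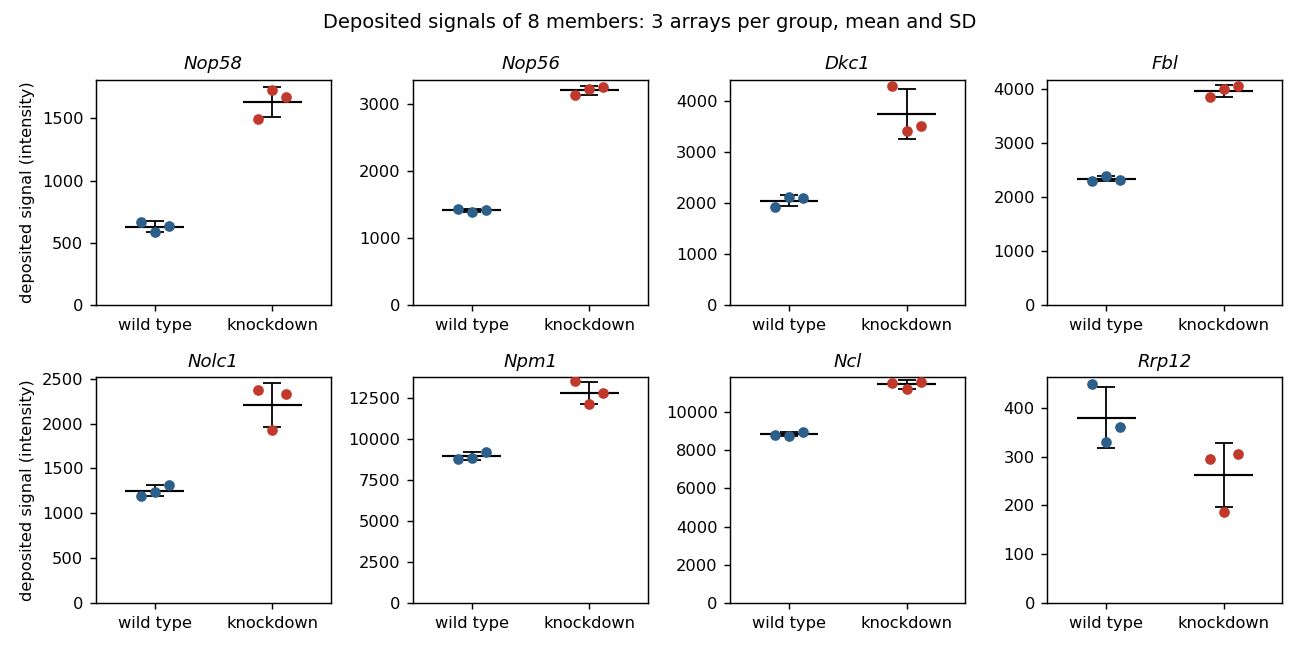
Deposited signals (intensity, linear axis from 0) of 8 members on the 3 wild-type (blue) and 3 knockdown (red) arrays; points are arrays in the order A, B, C, the long bar is the mean and the error bar the SD. Nop58 rises from a mean of 631.7 to 1631 and Ncl from 8827 to 11440, while Rrp12 goes from 380.0 to 262.2 with the knockdown B array lowest.

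All 9 factors of the large subunit rose, by a median of 0.47 on the log2 scale. The largest change was that of Rrp1b, which read 766.1, 731.3 and 852.6 in knockdown and 363.1, 377.4 and 381.1 in wild type, a difference of 0.93 ± 0.10 on the log2 scale (SE; limma adjusted p 6.07e-05). Its 2 other probe sets also rose, but by less, at 0.51 ± 0.15 and 0.42 ± 0.11. Rrs1, which helps bring the 5S rRNA particle into the large subunit, read 2212.1, 1785.3 and 1903.4 in knockdown and 1187.9, 1166.6 and 1182.5 in wild type, a difference of 0.73 ± 0.08 on the log2 scale (limma adjusted p 7.36e-05). Nip7 read 1606.2, 1870.9 and 1668.2 in knockdown and 1010.0, 1074.6 and 1115.7 in wild type, at 0.68 ± 0.09 (limma adjusted p 2.06e-04). In each of these 3 genes the lowest knockdown array lay clearly above the highest wild-type array.

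The proteins of Pes1, Bop1 and Wdr12 form 1 complex, named PeBoW, that is needed to process large subunit rRNA. Wdr12 rose by 0.61 ± 0.09 (SE), Bop1 by 0.47 ± 0.07 and Pes1 by 0.39 ± 0.09, with limma adjusted p of 6.09e-04, 4.14e-04 and 0.0109. A dimmer probe set of Pes1 gave -0.20 ± 0.18 and did not pass (limma adjusted p 0.478), which made Pes1 the only member whose tested probe sets differed in sign. The rRNA methyltransferase gene Nop2 rose by 0.41 ± 0.09, Ebna1bp2 by 0.35 ± 0.09 and Noc2l by 0.29 ± 0.09. Noc2l had the smallest change of those called, from 795.1 ± 56.1 to 1002 ± 68.5 (SD, n = 3), and its limma adjusted p of 0.0394 rose past 0.05 on leaving out knockdown B or C or any wild-type array, up to 0.169 without wild type C. It was also over 0.05 with the array letters as a replicate block (0.0827) and with no intensity trend (0.0931). A dimmer probe set of Noc2l was called higher as well and rose more, at 0.60 ± 0.10 (limma adjusted p 0.00138). The call of Ebna1bp2 was lost without knockdown C, wild type A or wild type B and with no intensity trend (limma adjusted p 0.0514), and that of Pes1 without wild type C. When a gene's probe sets were averaged, Ebna1bp2, Pes1 and Wdr12 were not called, at 0.20, 0.09 and 0.56 (limma adjusted p 0.308, 0.603 and 0.0536). For Wdr12 and Ebna1bp2 the average took in a probe set that lay within background on all 6 arrays and was not tested alone. Both tested probe sets of Wdr12 were called higher, the dimmer at 0.98 ± 0.21 (limma adjusted p 0.00561). With arrays centred on their medians, 5 of the 9 (Bop1, Ebna1bp2, Noc2l, Nop2 and Pes1) were no longer called.

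The 6 abundant or regulatory proteins of the nucleolus all rose, with a median log2 fold change of 0.52. Nolc1, a chaperone of snoRNPs, read 2370.2, 1925.1 and 2324.8 in knockdown and 1196.8, 1240.1 and 1316.5 in wild type, a difference of 0.82 ± 0.08 on the log2 scale (SE; limma adjusted p 4.29e-05), and its 2 dimmer probe sets gave 1.09 ± 0.13 and 1.14 ± 0.11. Ddx21, an RNA helicase that links Pol I transcription with rRNA processing, read 2539.2, 1827.6 and 2157.7 in knockdown and 1233.5, 1342.5 and 1350.5 in wild type, at 0.73 ± 0.10 (limma adjusted p 4.34e-04). Npm1 encodes nucleophosmin, the histone chaperone that gives the nucleolus much of its outer, granular layer. It read 13489.2, 12115.2 and 12778.9 in knockdown and 8738.0, 8840.3 and 9202.9 in wild type, a difference of 0.54 ± 0.07 on the log2 scale (limma adjusted p 1.88e-04). A second probe set gave 0.90 ± 0.08, and since Npm1 has processed pseudogenes, its probes may read more than 1 transcript. Ncl, nucleolin, read 11542.7, 11187.6 and 11595.6 in knockdown and 8787.2, 8751.5 and 8941.7 in wild type, at 0.41 ± 0.05 (limma adjusted p 1.18e-04), and 4 of its 5 probe sets were called. Gnl3, a nucleolar GTPase of stem and progenitor cells known as nucleostemin, rose by 0.51 ± 0.06, and Mybbp1a, a repressor of Pol I transcription, by 0.40 ± 0.06. The arrays of the 2 groups did not overlap for any of the 6. Centring arrays on their medians ended the calls of Ncl, Gnl3 and Mybbp1a, where their log2 fold changes were 0.18, 0.26 and 0.16.

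The separate probe sets of a gene told much the same. Of the 75 member probe sets, 70 were tested, of which 56 were called higher, 1 lower and 13 neither. Over all tested probe sets 16.1% were called higher and 14.3% lower. The 5 that were not tested lay within the bacterial control signal on all 6 arrays. Several probe sets were tested for 25 genes, of which 15 had every one called higher, 10 had some not called, and 24 had 1 sign throughout. Of the 6 members whose brightest probe set has an identifier ending in s_at or x_at, which may read related transcripts, 6 were called higher, as were 25 of the other 30.

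Promoter sequence was available for 31 members, from a RefSeq table of GRCm38.p6 in which each entry runs from 250 bases before to 50 bases after an annotated start. CACGTG, the E-box that MYC and its relatives bind and which reads the same on both strands, was found in 6 of 31 member genes, or 19.4%, against 10.9% of the 11460 tested genes in the table. Of the 6 sites 5 lay after the start, so that in the 250 bases before the start only 1 member, Nop2, or 3.23%, held it, against 9.35% of tested genes. A match is a description of the letters and not a site of binding. The 6 sites are shown within 30 bases, on the strand of the gene, with the E-box in capitals, since they are the only matches among the members and show where they lie.
Nop2 (chr6:125131811-125131840, plus strand, from base -60): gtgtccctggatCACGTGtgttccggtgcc
Pes1 (chr11:3963965-3963994, plus strand, from base 2): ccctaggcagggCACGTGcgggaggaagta
Wdr43 (chr17:71616220-71616249, plus strand, from base 17): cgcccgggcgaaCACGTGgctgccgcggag
Tsr1 (chr11:74898092-74898121, plus strand, from base 24): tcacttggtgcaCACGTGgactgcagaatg
Utp20 (chr10:88826765-88826794, minus strand, from base 37): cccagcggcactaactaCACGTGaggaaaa
Mybbp1a (chr11:72441347-72441376, plus strand, from base 40): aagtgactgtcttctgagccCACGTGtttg
The base given is the distance of the first motif letter from the start, where the start is base 0. These 6 genes had log2 fold changes from 0.33 for Utp20, which was not called, to 0.78 for Wdr43.

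The motif of GATA factors was searched in 4 forms on both strands, and any of them was found in 4 of 31 member genes, or 12.9%, against 23.6% of tested genes. The form AGATAA was found in 0 members, where 8.54% of tested genes held it. The form TGATAA was also found in 0 members, where 5.97% of tested genes held it. The form AGATAG was found in 2 members, or 6.45%, against 7.77% of tested genes. The form TGATAG was found in 2 members as well, against 5.91%. The searched motifs are rich in A and T. The median GC content was 59.3% over the 35 entries of members and 59.7% over the 14543 entries of tested genes, while it was 52.7% over all 32851 entries. The 4 matches all lay before the start and are shown with the motif in capitals, on the strand of the gene; for Rrp9 and Rrp1b the motif lies on the opposite strand and is printed as its reverse complement.
Nop10 (chr2:112261676-112261705, plus strand, from base -245): attaaAGATAGgactgatatcaacagtgaa
Dkc1 (chrX:75095610-75095639, plus strand, from base -232): ttgaaactgacaTGATAGcaagcaaaaaaa
Rrp1b (chr17:32035990-32036019, plus strand, from base -160): aaactcaaggcaCTATCTtggcggaaacgg
Rrp9 (chr9:106477255-106477284, plus strand, from base -42): cgccgtgggaacCTATCAgggctccgggtc
These 4 genes all rose, by 0.77 to 0.93 on the log2 scale, where 86.1% of all members rose. Whether the motif had a part in this was not tested.

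MYC proteins bind the E-box as pairs with MAX. Mycn rose by 1.98 ± 0.09 (SE) and Myc by 0.78 ± 0.08, with limma adjusted p of 1.94e-07 and 4.45e-05, while Max read 701.5, 726.7 and 717.9 in knockdown and 3143.8, 3357.9 and 3306.8 in wild type, a difference of -2.14 ± 0.07 on the log2 scale (limma adjusted p 1.69e-08). Max has 1 probe set named here. The part of these genes in the members' change was not tested.

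Many ribosome biogenesis genes outside the members were also higher in the knockdown. Of 131 further genes listed for the pathway, 127 were tested, of which 73 rose, 2 fell and 52 did not pass, with a median log2 fold change of 0.35. That is 57.5% called higher, where 86.1% of the members and 18.3% of all tested genes were. The difference between the 2 lists is given as a description and was not tested. With arrays centred on their medians, 33 rose and 4 fell, where 8.35% of all tested genes were called higher and 20.8% lower.

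Of 14 other genes for Pol I and its factors, 7 rose and 1 fell. The Pol I subunit genes Twistnb (also called Polr1f) and Polr1c rose by 0.90 ± 0.08 (SE) and 0.75 ± 0.11. Taf1a, of the factor that selects the rDNA promoter, read 113.9, 123.3 and 159.9 in knockdown and 270.6, 273.0 and 253.7 in wild type, a difference of -1.03 ± 0.17 on the log2 scale (limma adjusted p 0.0012). Thus Taf1a moved against the Pol I subunits that were called, but its value on knockdown B lay within the bacterial control signal of that array. Rrn3, the initiation factor that recruits Pol I, had 0.07 ± 0.12 and did not pass (limma adjusted p 0.737), while Ubtf, the nucleolar factor that keeps rDNA open, rose by 0.43 ± 0.07; both were named after their values were seen. Of 8 tested snoRNP assembly factors, 5 rose and 0 fell, led by the ATPase gene Ruvbl1, at 0.56 ± 0.08, and Naf1, at 0.53 ± 0.10.

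Of 41 further small subunit factors, 23 rose and 0 fell. The U3 snoRNP protein gene Imp3 rose by 1.10 ± 0.08 (SE), from 1229 ± 74.8 to 2605 ± 177 (SD, n = 3), and Nol6 by 0.91 ± 0.16. Of 51 further large subunit factors, 33 rose and 1 fell. Nle1 rose by 1.15 ± 0.14, from 210.0 ± 25.3 to 548.6 ± 65.3 (SD, n = 3), and Nol8 by 1.06 ± 0.13. The helicase gene Ddx24 read 1152.1, 1184.5 and 1057.7 in knockdown and 1955.3, 1866.2 and 2006.9 in wild type, a difference of -0.75 ± 0.08 on the log2 scale (limma adjusted p 3.91e-05). Its knockdown arrays all lay below its wild-type arrays, as for Taf1a. Of 13 tested genes of the RNA exosome and its cofactors, which trim rRNA precursors, 5 rose and 0 fell, led by Exosc5, at 0.85 ± 0.10, and Exosc1, at 0.73 ± 0.09.

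**Figure D3:**
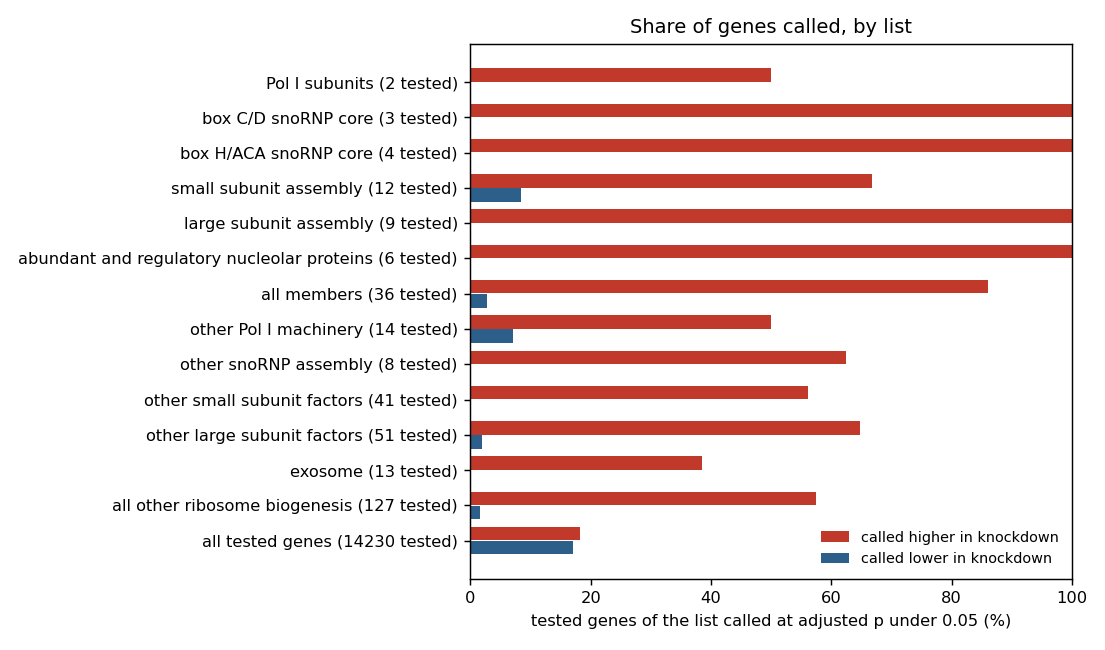
Share of tested genes called higher (red) or lower (blue) in knockdown at an adjusted p under 0.05 (horizontal axis, percent), for each role group of the members, each list of other pathway genes and all tested genes; bars are single percentages with no error bar, and lists differ in size as printed. The members reach 86.1% higher and 2.78% lower, the other pathway genes 57.5% and 1.57%, and all tested genes 18.3% and 17.1%.

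**Figure D4:**
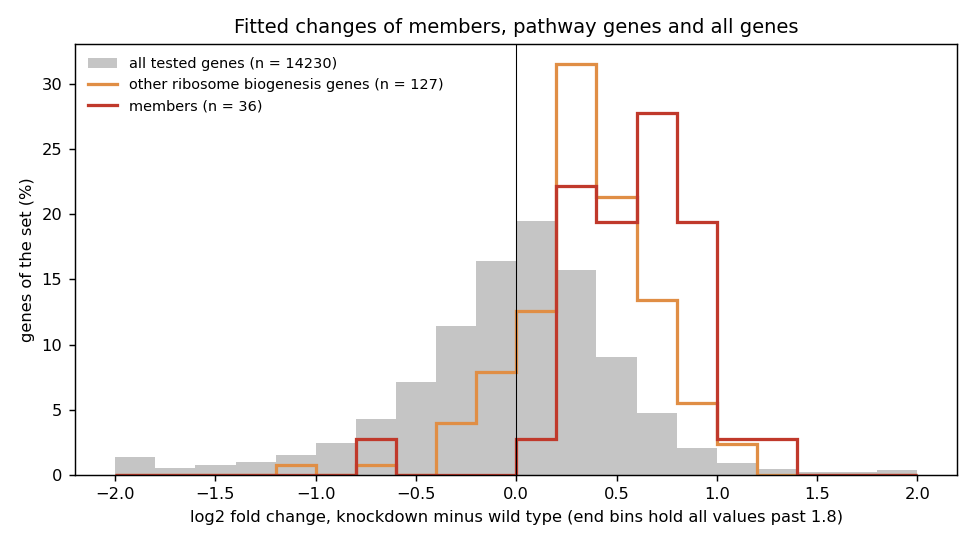
Distribution of fitted log2 fold changes, knockdown minus wild type (horizontal axis, bins of 0.2), as the percent of each set (vertical axis), for 36 members, 127 other ribosome biogenesis genes and 14230 tested genes; values past the ends are in the end bins. The members centre on a median of 0.61 and the other pathway genes on 0.35, to the right of the median of all genes, 0.033.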

How the data were processed

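Signals of 6 single-channel Affymetrix mouse arrays were used as deposited: intensity on a linear scale, scaled by the authors so that the mean of each array, trimmed of its extreme probe sets, is 500.0. The software behind the signals is not given in the sources used here. The authors' signals were taken as log2(signal + 32) and quantile normalized, since the deposited medians spanned 0.346 on that scale. The 64 control probe sets, and probe sets whose mean lay below the 30th percentile, were left out. Groups, read from the sample titles, were compared with limma (version 3.58.1, R 4.3.3), with an intensity trend and group as the only term, two-sided, with Benjamini-Hochberg adjustment over 31526 probe sets. The test was checked on simulated data. Log2 fold changes carry the offset, which understates changes of dim genes. Probe sets naming 1 gene (34945) were used, and a gene was read through its brightest. Background is the highest of 27 bacterial control probe sets on each array.

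Per-array values and full statistics are given for called members with the largest change, up to 3 a role group in each direction, and for Npm1, Ncl and Fbl; in the other lists, up to 2 called genes in each direction are named, and Gata1, Myc, Mycn and Max in any case. Other members were given in short form or, where not called, in full. The members and lists were chosen with earlier results of these data known. A gene without a probe set named here, such as Snu13, Nom1 and Mrto4, was not analysed. Alternatives are listed in the closing section.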

Additional observations from a re-analysis of the deposited data

How the results depend on the processing

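The counts of members called were recomputed with 16 alternatives, and the number called higher ranged from 21 (arrays centred on their medians) to 34 (values as deposited) of 36. Of the 31 genes that rose, 20 kept their call under every alternative, and the members' median log2 fold change stayed positive throughout. With arrays centred on their medians the median was 0.41, 36 of 70 member probe sets were called higher, and 33 of the other ribosome biogenesis genes were called higher and 4 lower. Under that centring 8.35% of all tested genes were called higher and 20.8% lower. Shares over all probe sets were taken in the main fit only, at 16.1% higher and 14.3% lower. The probe set counts of the alternatives thus have no such share beside them. Over all tested genes rises made up 51.7% of calls, 56.4% as deposited and 28.7% with that centring. The 1 fall, Rrp12 with its 1 probe set, was lost (0 genes and 0 probe sets lower) as deposited, with no filter and with no intensity trend. When 1 array was left out, 29 to 33 member genes and 49 to 57 member probe sets were higher, 0 to 1 lower, the median was 0.60 to 0.64, and 54 to 75 other pathway genes were higher and 2 to 3 lower. Between 14.5% and 20.6% of all tested genes were called higher in these fits. Dimt1, not called, ranged from -0.01 without wild type A to 0.32 without knockdown B. CACGTG was found in 1 member in place of 6 with the 250 bases before the start only. With the letters as a replicate block, 30 member genes rose and 1 fell, 54 probe sets were higher, and 63 other pathway genes were higher. In that fit 16.7% of all tested genes were called higher. Deviations of same-lettered arrays correlated at -0.0423, -0.0174 and -0.00958, so the letters were taken only as names. The cause of these changes was not tested. Members close to the bacterial control signal, such as Dimt1, are limited by signal over background.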
